A study of Drosophila melanogaster with 9 samples.

Results

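RNA from whole *KahΔZnF* embryos was set against RNA from *w1118* embryos, and the difference is described here across functional gene classes and tissues of the embryo. Genes were included when they had a value of 10 or more in at least 3 of the 6 libraries compared, which kept 10957 of the 14584 genes listed. *Kah* (Kahuli) encodes a zinc finger transcription factor of the Snail family that is expressed in the visceral mesoderm, the layer that forms the gut muscle. The paper also reports *Kah* expression in the somatic mesoderm, the brain and the ventral nerve cord. The study asked what the embryo transcribes differently without the DNA-binding part of the protein. The *KahΔZnF* allele is a CRISPR/Cas9 deletion, made in embryos that express Cas9 in the germline under the *vasa* promoter, which takes out the zinc finger coding region and leaves the rest of the reading frame. The *w1118* strain, a white-eyed laboratory stock, was the control. Each genotype had 3 libraries, out of 9 in a series of 3 genotypes. Embryos of both genotypes were aged between 5 and 16 h after egg laying, and the descriptions differ on whether the libraries of a genotype shared 1 collection or came from several. The age mix of the collections, the genetic background of a stock and the genotype cannot be told apart. Replicate spread, and every p-value made from it, measures only the spread between these libraries, which may be technical. In RNA from whole embryos, fewer cells of a type and less RNA per cell cannot be told apart either.

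As background, a fly egg is loaded by the mother with RNA for axis formation, germ plasm and the rapid nuclear divisions, and much of that RNA is cleared once the zygotic genome is switched on. Gap, pair-rule and Hox genes then lay out the body plan while most cells still divide. In the later hours of embryogenesis cells leave the division cycle, neurons build synapses, myoblasts fuse and assemble sarcomeres, the gut starts to make digestive enzymes, and the epidermis secretes a chitin and protein cuticle.

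The deposited value of a gene is its read number divided by a size factor for the library and is called the normalized count here. The libraries held between 18587465 and 20036769 reads on genes. The share of reads on mitochondrial genes was 8.67%, 16.6% and 16.0% in *KahΔZnF* replicates 1 to 3, against 16.3%, 9.76% and 11.2% in *w1118* replicates 1 to 3, so it did not follow genotype. Replicate 1 of each genotype stood apart from replicates 2 and 3. Over all genes the chi-square of counts per degree of freedom was 71.4 and 69.99 between *KahΔZnF* replicate 1 and the others and 5.42 between replicates 2 and 3, and 55.7 and 46.4, against 7.30, in *w1118*. Without the transcripts of the mitochondrial genome these values were 17.9 and 22.5, against 5.12, in *KahΔZnF* and 21.2 and 25.7, against 5.38, in *w1118*. Leaving out replicate 1 of both genotypes, an alternative chosen after seeing the data, gave 2768 genes higher and 2944 lower, with 95.2% of the calls kept. Fold changes are on the log2(normalized count + 1) scale, *KahΔZnF* over *w1118*, with limma's standard error and Benjamini-Hochberg adjusted p. A gene is said to have risen or fallen when it passed an adjusted p of 0.05 and differed by 0.59 or more on the log2 scale, in either direction. At the edge of the inclusion limit, the last genes inside were *RYa-R*, *CG9507* and *CG16813*, each with 10.2 normalized counts in its third-highest library, and the first outside were *CG13748*, *CG4927* and *CG13575* with 9.99. The 3627 genes left out hold 0.0486% of the reads. A gene could pass the limit through the libraries of 1 genotype alone, which favours a call for genes with few reads in the other.

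Differences between the genotypes were spread over much of the transcriptome. Of the 10957 genes tested, 2607 rose in *KahΔZnF* embryos (23.8%) and 2793 fell (25.5%), so that 49.3% were called in either direction. The median log2 fold change over all genes tested was 0.00. Size factors place the typical gene near 0, so this median and the reference point of every fold change rest on the scaling. A change of 2-fold or more was reached by 1466 genes that rose and 1630 that fell, and 8-fold or more by 63 and 44. The libraries of both genotypes did not overlap for 74.5% of the genes tested and for 99.0% of those called. The counts given for gene classes are to be read against these shares of 23.8% rising and 25.5% falling. Where a class had a count of 0 in one direction, between 0 and 13 of its genes lay in that direction at an unadjusted p of at most 0.05 (limma), and DESeq2 and edgeR each called at most 1. Of the 101 class counts under 5, 26 moved by over 1.5 times when some 1 library was left out, by at most 3 genes.

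**Figure D1:**
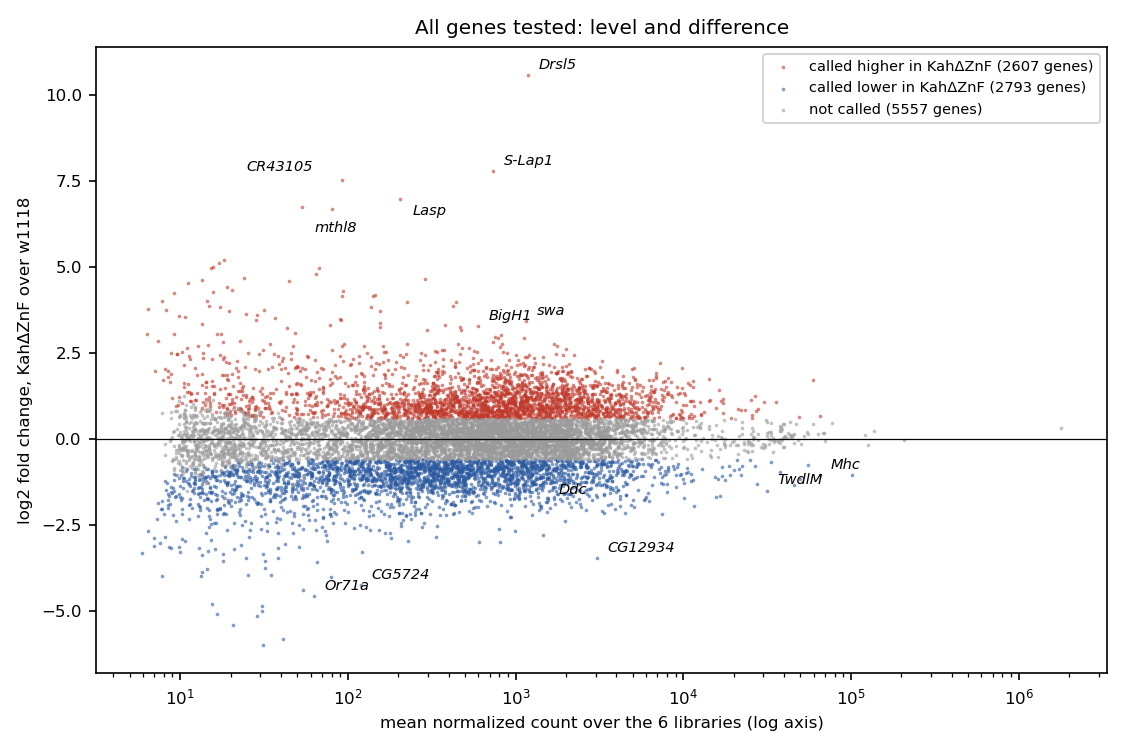
Each point is 1 of the 10957 genes tested, placed by its mean normalized count over the 6 libraries (log axis) and its log2 fold change, *KahΔZnF* over *w1118*. Red points are the 2607 genes called higher and blue points the 2793 called lower. Genes called either way are found at every level, and *Drsl5* stands above all others.

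*Kah* itself (FBgn0035144, chromosome 3L from 582824 to 589274 in BDGP6) was read at 774, 683 and 773 normalized counts in *KahΔZnF*, against 377, 362 and 375 normalized counts in *w1118*. All *KahΔZnF* libraries were above all *w1118* libraries (log2 fold change 0.998, standard error 0.09, adjusted p = 6.1e-06). The normalized count is summed over the whole gene, so it does not show the deletion. Among the other Snail family genes tested, worniu, *wor*, a neuroblast factor, rose to 706 ± 75.9 normalized counts in *KahΔZnF*, against 368 ± 25.7 in *w1118* (SD, n = 3 each). *CG12605*, an uncharacterized zinc finger gene of the list, had 298, 223 and 195 normalized counts in *KahΔZnF*, against 409, 491 and 557 normalized counts in *w1118*, and fell. *sna*, *esg* and *scrt* had log2 fold changes of 0.07, -0.06 and -0.20 and were not called.

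Genes of the maternal and germline programme were among those with the largest increases. Of the maternal axis and egg activation genes, 14 of 20 rose and 1 fell, with a median log2 fold change of 1.09. Swallow, *swa*, which is needed to place *bicoid* RNA at the front of the egg, had 2023, 2108 and 2202 normalized counts in *KahΔZnF*, against 227, 196 and 165 normalized counts in *w1118* (log2 fold change 3.43, standard error 0.12, adjusted p = 2.21e-08). *tor*, the terminal receptor tyrosine kinase, had 1594, 1330.3 and 1467 normalized counts in *KahΔZnF*, against 145, 232 and 169.8 normalized counts in *w1118* (log2 fold change 3.02, standard error 0.16, adjusted p = 1.39e-07). Every *KahΔZnF* library held several times the *w1118* level of both. The anterior determinant *bcd* rose by a log2 fold change of 2.51, with 1633, 1259.5 and 1407 normalized counts in *KahΔZnF*, against 216, 337 and 211 normalized counts in *w1118*. Giant nuclei and plutonium, *gnu* and *plu*, which control the early S and M phases of the egg, had log2 fold changes of 2.60 and 2.39. *smg*, whose product marks maternal RNA for removal, rose to 16006 ± 1748 normalized counts in *KahΔZnF*, against 3785 ± 293 in *w1118* (SD, n = 3 each). *Tl*, the dorsoventral receptor Toll, rose by a log2 fold change of 1.45, while the dorsoventral factor *dl* was the only gene of the list to fall, with 849, 810.0 and 653 normalized counts in *KahΔZnF*, against 1196, 1449 and 1568 normalized counts in *w1118* (log2 fold change -0.87, standard error 0.13, adjusted p = 0.000132).

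Germ plasm genes moved the same way, with 10 of 14 rising, 0 falling and a median log2 fold change of 1.04. *osk*, which nucleates the germ plasm, had 194, 311 and 151 normalized counts in *KahΔZnF*, against 44.5, 30.8 and 22.0 normalized counts in *w1118* (log2 fold change 2.71, standard error 0.30, adjusted p = 1.74e-05). The lowest *KahΔZnF* library was above the highest *w1118* library, but the spread within *KahΔZnF* was wide. *pgc*, a repressor of transcription in pole cells, had 70.8, 146 and 41.5 normalized counts in *KahΔZnF*, against 38.03, 13.5 and 9.99 normalized counts in *w1118*, and rose. *bam*, which starts germline differentiation, had 214, 186 and 172 normalized counts in *KahΔZnF*, against 62.1, 54.9 and 60.9 normalized counts in *w1118*. *nos* and *vas*, the posterior determinant and a germline helicase, had smaller increases, at log2 fold changes of 0.86 and 0.76. *tud* and *gcl* had log2 fold changes of -0.49 and -0.57 and did not pass. *gcl* lay close to the limit and was called lower by edgeR, after TMM scaling (a trimmed mean of the fold changes between libraries) and, with the log2 fold change in brackets, without *KahΔZnF* replicate 1 (-0.61), *KahΔZnF* replicate 2 (-0.60) or *w1118* replicate 1 (-0.65), and *tud* without *KahΔZnF* replicate 1 (-0.593). Without replicate 1 of both genotypes the log2 fold changes of *gcl* and *tud* were -0.68 and -0.69, both called.

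The piRNA pathway silences transposons with small RNAs in the germline. Of its genes, 14 of 18 rose and 0 fell, with a median log2 fold change of 1.69, the largest median of the maternal and germline classes. Summed over the class, the normalized count was 12054, 11959 and 12222 in the *KahΔZnF* libraries, against 3098, 3110.4 and 2942 in the *w1118* libraries. *AGO3*, which takes part in ping-pong amplification, had 3069, 3129.5 and 3508 normalized counts in *KahΔZnF*, against 604, 577 and 598 normalized counts in *w1118* (log2 fold change 2.44, standard error 0.08, adjusted p = 2.21e-08). *tej*, a Tudor domain component of the nuage, and *zuc*, the endonuclease of piRNA biogenesis, had log2 fold changes of 2.67 and 2.52. *rhi*, which licenses transcription of piRNA clusters, had a log2 fold change of 2.17, and *piwi* one of 1.22. *armi*, *spn-E* and *del* were close to the level of *w1118*, with log2 fold changes of 0.15, 0.08 and -0.26. Markers of the ovarian follicle cells, the maternal cell type that makes the eggshell, were near 0 in both genotypes. Only 1 of 13 such genes in the table passed the inclusion limit, and the list summed to 41.1, 37.6 and 42.5 in the *KahΔZnF* libraries, against 46.4, 61.7 and 69.9 in the *w1118* libraries in normalized counts.

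Genes of the cell division cycle were higher in *KahΔZnF*. Of the cyclin, Cdk and Cdc25 genes, 17 of 24 rose and 0 fell, with a median log2 fold change of 0.89. *CycB*, the mitotic cyclin, had 23273, 20558 and 21811 normalized counts in *KahΔZnF*, against 6543, 6626 and 6232 normalized counts in *w1118* (log2 fold change 1.76, standard error 0.08, adjusted p = 7.26e-08). *twe*, the germline and maternal Cdc25, had a log2 fold change of 2.75, while *stg*, the zygotic Cdc25, had 2879.8, 2728 and 2885 normalized counts in *KahΔZnF* and 2463, 2428 and 2169.9 in *w1118* and was not called (log2 fold change 0.27). *CycB3*, *Cdk1*, *CycA* and *CycE* rose by log2 fold changes of 1.92, 1.68, 1.51 and 0.81.

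Of the DNA replication genes, 36 of 38 rose and 0 fell, with a median log2 fold change of 1.01. The members called included genes of origin recognition (*Orc1*, log2 fold change 1.15), loading of the helicase (*dup*, 2.07, and *Cdc6*, 2.10), the helicase itself (*Mcm7*, 1.85) and the sliding clamp (*PCNA*, 1.07). *PCNA* had 2406, 2650.0 and 2937 normalized counts in *KahΔZnF*, against 1519, 1198 and 1107 normalized counts in *w1118*. *Mcm10* had the largest increase of the class, with 2139, 1866 and 2086 normalized counts in *KahΔZnF*, against 399, 382 and 346 normalized counts in *w1118*. The exceptions were *Gnf1*, a clamp loader subunit, and *Psf3*, a subunit of the GINS complex, at log2 fold changes of 0.52 and -0.30. *Psf3* was thus apart from its GINS partners *Psf1*, *Psf2* and *Sld5*, at log2 fold changes of 1.82, 1.48 and 1.55, and its exons overlap those of another annotated gene.

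Mitosis and kinetochore genes had a larger median, as 33 of 38 rose and 0 fell, with a median log2 fold change of 1.48. *polo*, the mitotic kinase, had 12249, 11656 and 12089 normalized counts in *KahΔZnF*, against 2711, 2574 and 2472 normalized counts in *w1118* (log2 fold change 2.21, standard error 0.07, adjusted p = 2.21e-08). *thr* and *pim*, separase and securin, which together time the separation of sister chromatids, had log2 fold changes of 2.44 and 2.39. The chromosomal passenger genes *borr*, *Incenp* and *aurB* rose by 2.26, 1.53 and 1.35 on the same scale, and the outer kinetochore genes *Nuf2*, *Spc25* and *Ndc80* by 2.10, 2.17 and 1.24. The cohesin core genes *SMC1* and *SMC3* had log2 fold changes of 0.37 and 0.28 and were not called, whereas the condensin genes *SMC2*, *glu* and *barr* rose by 1.97, 2.05 and 0.93. The difference between these complexes was not tested. Centrosome genes rose in 12 of 16 cases, with the maternal gamma-tubulin *gammaTub37C* at 58.1 ± 18.6 normalized counts in *KahΔZnF*, against 12.6 ± 3.02 in *w1118* (SD, n = 3 each).

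Several groups of chromatin genes rose in most of their members. *BigH1*, the linker histone of early embryos, had 975, 1113 and 1165 normalized counts in *KahΔZnF*, against 124, 99.2 and 111 normalized counts in *w1118* (log2 fold change 3.27, standard error 0.12, adjusted p = 3.17e-08), and no library of one genotype came near those of the other. *His2Av*, the H2A variant, rose to 23877 ± 2136 normalized counts in *KahΔZnF*, against 8947 ± 739.8 in *w1118* (SD, n = 3 each). In all, 9 of 11 genes of replication-coupled chromatin assembly rose. Trithorax group and Brahma remodeller genes rose in 19 of 27 cases, and genes of SAGA, a histone acetyltransferase and deubiquitinase complex, in 13 of 18. Genes of the opposing Polycomb group rose in 5 of 19, a share of 26.3% against the background of 23.8%. *brm* and *Snr1*, the ATPase and a core subunit of the Brahma complex, had log2 fold changes of 1.503 and 1.57. *E(z)*, *Pc* and *ph-p* of the Polycomb group were not called, at log2 fold changes of 0.01, 0.19 and 0.10, while *pho*, its DNA-binding member, rose to 6464 ± 1317 normalized counts in *KahΔZnF*, against 2108 ± 206 in *w1118* (SD, n = 3 each). Nuclear pore genes rose in 19 of 24 cases with a median log2 fold change of 1.11, led among the named nucleoporins by *Mtor* (1.73) and *Nup160* (1.68).

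**Figure D2:**
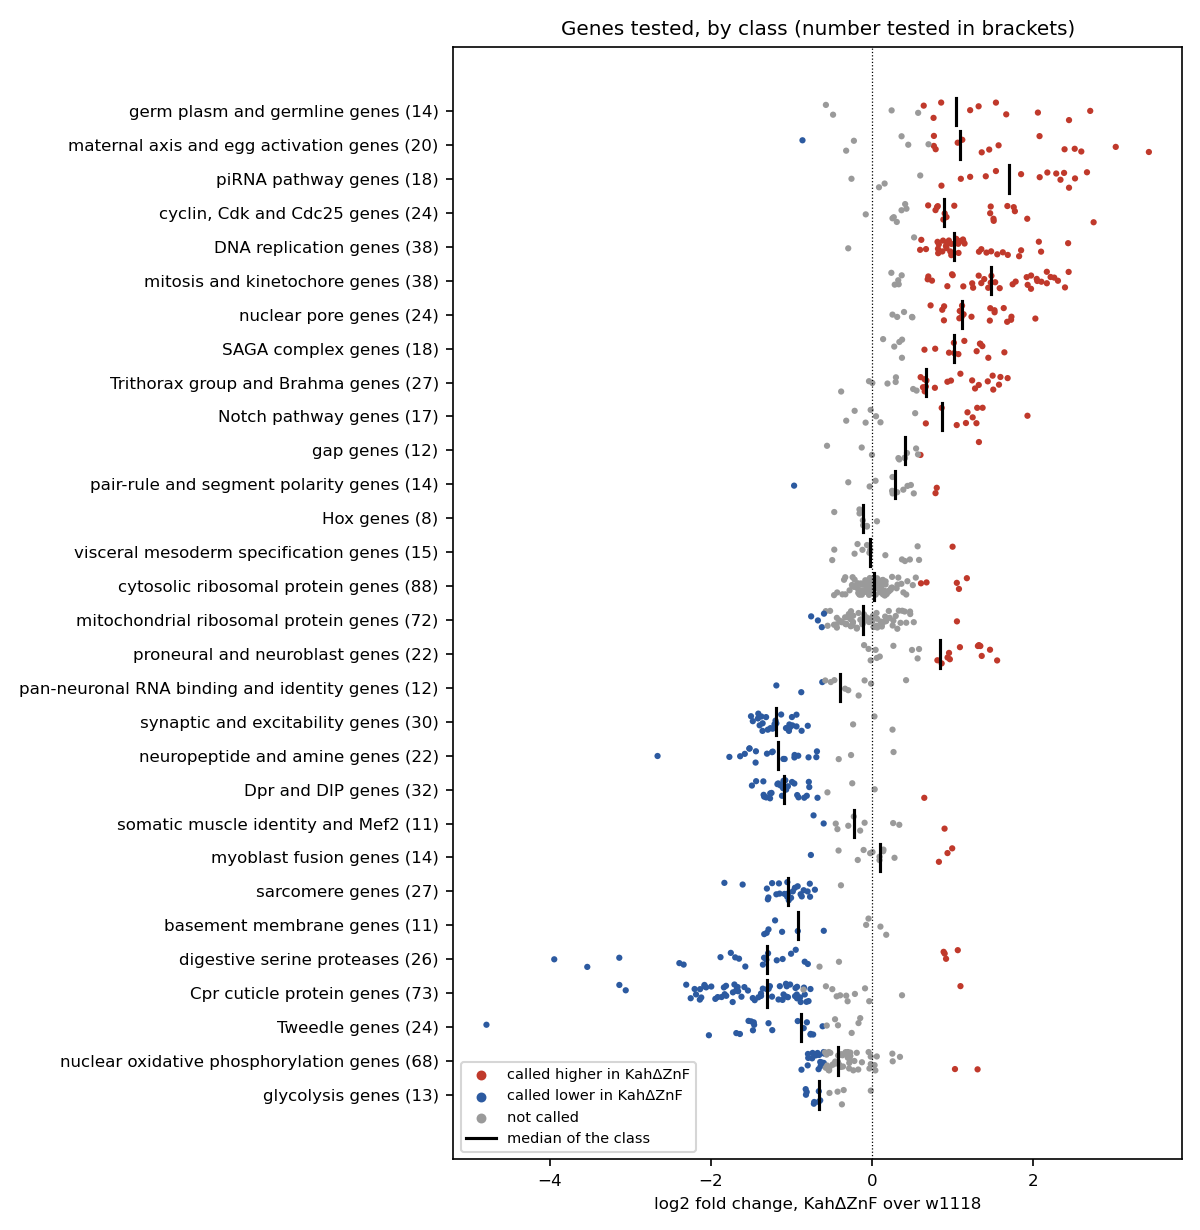
Every tested member of 30 gene classes is placed by its log2 fold change, *KahΔZnF* over *w1118*, with red for genes called higher, blue for genes called lower, grey for genes not called and a black bar at the median of the class. Germline, replication and mitosis genes lie to the right of 0, Hox and ribosomal protein genes around it, and synaptic, sarcomere, protease and cuticle genes to the left.

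Few of the Hox, gap, pair-rule and segment polarity genes were called. The *Hox* genes, which set segment identity along the body, had no call in either direction among 8 tested, with a median log2 fold change of -0.11 and a range between -0.47 and 0.06. One of them was lower at an unadjusted p of at most 0.05, and neither DESeq2 nor edgeR called any. *Ubx* averaged 1452 ± 48.6 normalized counts in *KahΔZnF*, against 1393 ± 47.6 in *w1118* (SD, n = 3 each). *Antp* had 1649, 1527 and 1567 normalized counts in *KahΔZnF* and 1753, 1804 and 1730.3 in *w1118* (log2 fold change -0.16, standard error 0.08, adjusted p = 0.0845). Of the gap genes, 2 of 12 rose. *hb*, hunchback, which also has a maternal transcript and a role in neuroblasts, had 1023, 894 and 1001 normalized counts in *KahΔZnF*, against 398, 425 and 343 normalized counts in *w1118* (log2 fold change 1.32, standard error 0.11, adjusted p = 2.14e-06). *ems* passed the limit narrowly, at a log2 fold change of 0.60, and lost its call with edgeR, with TMM scaling, against a fold change of 1.5 and without *KahΔZnF* replicate 1 (0.56), *KahΔZnF* replicate 3 (0.588) or *w1118* replicate 3 (0.53). The gap genes *Kr*, *kni*, *gt* and *tll* had log2 fold changes of 0.34, 0.40, 0.43 and 0.33, under the limit of 0.59. Their adjusted p were 0.00317, 0.00265, 0.0122 and 0.0556 (limma). Each was higher in every *KahΔZnF* library than in any *w1118* library, and 74.5% of all genes tested had groups apart. Gap genes summed to between 7215 and 7743 normalized counts in *KahΔZnF*, against 6648 to 6790 in *w1118*. Of the pair-rule and segment polarity genes, 2 of 14 rose and 1 fell, with a median log2 fold change of 0.28. *ftz*, fushi tarazu, rose to 80.9 ± 10.6 normalized counts in *KahΔZnF*, against 47.3 ± 11.9 in *w1118* (SD, n = 3 each), a call lost without *w1118* replicate 3 (log2 fold change 0.57). Hairy, *h*, a repressor that acts again in later tissues, had 575, 497 and 474 normalized counts in *KahΔZnF*, against 882, 1049 and 1101 normalized counts in *w1118*, and fell. *en*, *wg* and *hh* had log2 fold changes of 0.39, 0.48 and 0.25 and were not called, except that *wg* passed without *KahΔZnF* replicate 2 (0.60). Their adjusted p were 0.00945, 0.00494 and 0.0375 (limma), with every *KahΔZnF* library above every *w1118* library. Pair-rule and segment polarity genes summed to between 7983 and 8872 normalized counts in *KahΔZnF*, against 6584 to 7422 in *w1118*. *slam*, which is expressed while the blastoderm forms cells, had 1775, 1367 and 1410.0 normalized counts in *KahΔZnF*, against 223, 307 and 272 normalized counts in *w1118*, a log2 fold change of 2.50. Of its class, 5 of 10 genes were expressed enough to test and 3 rose.

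Among the signalling pathways, the Notch, E(spl) and Hedgehog genes had the largest shares rising. Of the Notch pathway genes, 10 of 17 rose and 0 fell, with a median log2 fold change of 0.86. The gamma-secretase genes *nct*, *aph-1* and *Psn* rose by log2 fold changes of 1.37, 1.30 and 1.25, while *pen-2* was at -0.22 on that scale. The receptor *N* averaged 5426 ± 229 normalized counts in *KahΔZnF*, against 2984 ± 133 in *w1118* (SD, n = 3 each) and its ligand *Dl* rose by 1.16 on the log2 scale, while the other ligand, *Ser*, was at 0.05. Of the E(spl) complex genes, which respond to Notch, 7 of 11 rose, with *E(spl)m8-HLH* at 403 ± 10.5 normalized counts in *KahΔZnF*, against 219 ± 14.04 in *w1118* (SD, n = 3 each). Hedgehog pathway genes rose in 7 of 12 cases, among them the kinase *fu* and the transducer *smo*, at log2 fold changes of 1.53 and 1.003. Of the Wingless pathway genes, 10 of 22 rose and 2 fell, with a median log2 fold change of 0.54. Within it the cytoplasmic genes *dsh*, *Axn* and *arm* rose by log2 fold changes of 1.34, 0.95 and 0.84, while the receptors *fz* and *fz2* were at 0.20 and -0.08. Of the Dpp pathway genes, 5 of 15 rose and 1 fell, with a median log2 fold change of -0.001. Of the EGFR and Ras pathway genes, 5 of 23 rose and 1 fell, with a median of 0.24. The rising shares, 33.3% and 21.7%, lay above and just under the background of 23.8%, and the falling shares, 6.67% and 4.35%, under that of 25.5%. Of the JAK-STAT genes, 3 of 8 rose and 1 fell, with a median log2 fold change of 0.39, and the receptor *dome* rose to 6455 ± 539 normalized counts in *KahΔZnF*, against 2194 ± 38.4 in *w1118* (SD, n = 3 each).

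The nervous system was divided between its early and its late genes. Of the proneural and neuroblast genes, which select and divide the neural stem cells, 12 of 22 rose and 0 fell, with a median log2 fold change of 0.84. *sens*, a proneural cofactor also made in the salivary gland, had 447, 367 and 426 normalized counts in *KahΔZnF*, against 190.1, 139 and 125 normalized counts in *w1118* (log2 fold change 1.46, standard error 0.16, adjusted p = 1.82e-05). The proneural genes *ato*, *ac*, *sc* and *l(1)sc* rose by log2 fold changes of 1.34, 1.31, 1.09 and 0.96. *ase* and *mira*, which mark dividing neuroblasts, rose by log2 fold changes of 0.81 and 0.95. The neuroblast genes *pros*, *cas* and *SoxN* had log2 fold changes of 0.09, 0.06 and -0.04 and were not called.

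The general neuronal marker *elav* had 5243, 4516 and 4720.1 normalized counts in *KahΔZnF* and 4689, 4807 and 5104 in *w1118*, which overlapped (log2 fold change -0.01, standard error 0.08, adjusted p = 0.891). Of the general neuronal identity genes 3 of 12 fell, or 5 when replicate 1 of either genotype was left out. By contrast, of the synaptic and excitability genes, 27 of 30 fell and 0 rose, with a median log2 fold change of -1.19. Their summed normalized count was 41229, 36547 and 33496 in the *KahΔZnF* libraries, against 56263, 74744 and 85370.0 in the *w1118* libraries, a ratio of means of 0.514, and of 0.463 without *w1118* replicate 1, which had the lowest sum of the control libraries. Bruchpilot, *brp*, the scaffold of the active zone, had 2549, 2058 and 1739.6 normalized counts in *KahΔZnF*, against 3747, 5100.1 and 5879 normalized counts in *w1118* (log2 fold change -1.21, standard error 0.17, adjusted p = 9.45e-05). The sodium channel gene *para* had 1128, 881 and 708 normalized counts in *KahΔZnF*, against 1792, 2717 and 3305 normalized counts in *w1118* (log2 fold change -1.504, standard error 0.21, adjusted p = 0.000105). Both groups were apart for each of these genes, and their *KahΔZnF* levels were under that of the lowest control library. The calcium sensor *Syt1* fell by 1.03 on the log2 scale, and the complexin gene *cpx* by 1.26. Genes for the main transmitters fell together, with log2 fold changes of -1.38 for *Cha* (acetylcholine synthesis), -1.41 for *Gad1* (GABA synthesis) and -1.02 for *VGlut* (glutamate loading). The members not called were *unc-13*, *Syx1A* and *Csp*, at log2 fold changes of -0.24, 0.03 and 0.25.

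Of the neuropeptide and amine genes, 19 of 22 fell and 0 rose, with a median log2 fold change of -1.17. *Ddc*, dopa decarboxylase, which serves both dopamine and serotonin neurons and the hardening cuticle, had 695, 739 and 660.3 normalized counts in *KahΔZnF*, against 1729.8, 2753 and 2851 normalized counts in *w1118* (log2 fold change -1.77, standard error 0.16, adjusted p = 5.35e-06). *ple*, tyrosine hydroxylase, with the same dual use, had a log2 fold change of -1.58. The peptide genes *sNPF*, *Dh44*, *Hug* and *Dh31* had log2 fold changes of -1.52, -1.52, -1.45 and -1.44, and *Crz* and *Tk*, which were not called, of 0.27 and -0.26. Genes of the Dpr and DIP families, cell surface proteins that match synaptic partners, fell in 28 of 32 cases and rose in 1, with a median log2 fold change of -1.09. Axon guidance genes, which act earlier, were mostly not called, as 4 of 26 rose and 4 fell (15.4% each), with a median log2 fold change of -0.08. Both shares were under those of all genes tested. The midline genes *sli* and *robo* had log2 fold changes of -0.09 and 0.16. Among glial genes the fate gene *gcm* rose to 616 ± 33.3 normalized counts in *KahΔZnF*, against 349 ± 46.9 in *w1118* (SD, n = 3 each), the glial marker *repo* was at 584 ± 56.1 normalized counts in *KahΔZnF*, against 603 ± 18.1 in *w1118* (SD, n = 3 each), and the transporter of differentiated glia *Eaat1* had 826, 878 and 902 normalized counts in *KahΔZnF*, against 2187, 2638 and 3191 normalized counts in *w1118* (log2 fold change -1.604, standard error 0.12, adjusted p = 1.48e-06). In total 4 of 13 glial genes fell and 1 rose.

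**Figure D3:**
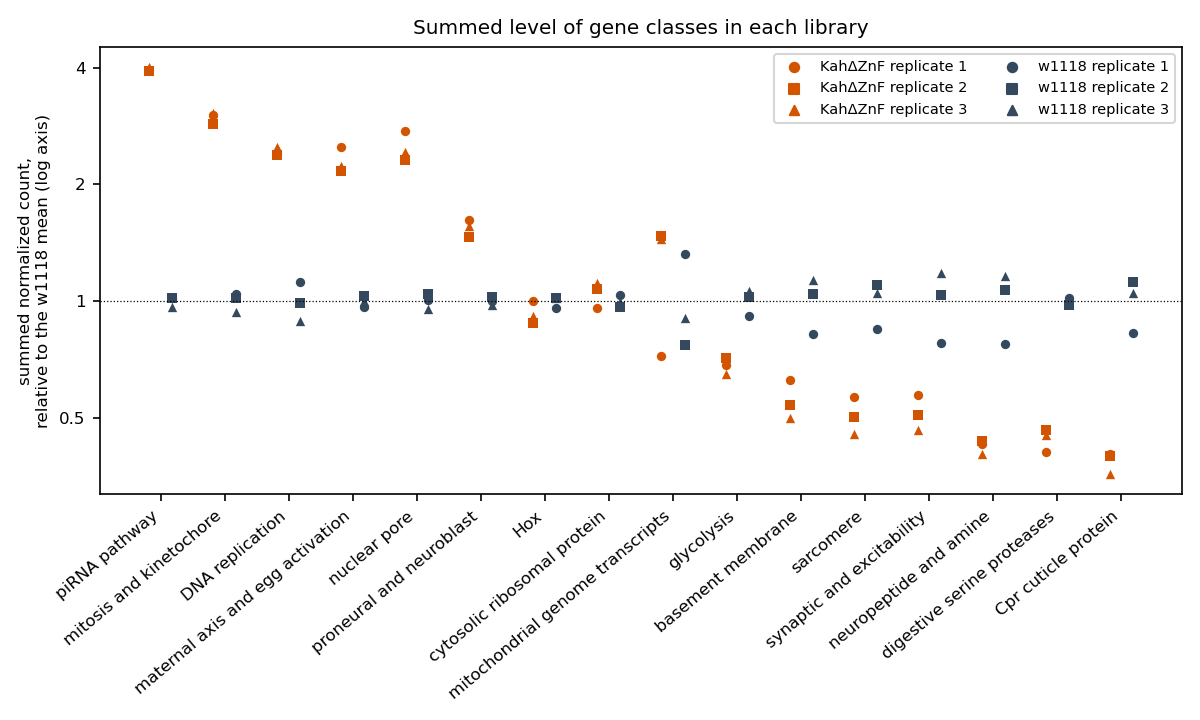
For 16 gene classes, the normalized counts of all members are summed in each library and divided by the mean of the *w1118* libraries (log axis), with *KahΔZnF* in orange to the left and *w1118* in dark blue to the right, and a symbol for each replicate. The genotypes are apart for every class shown except the Hox, ribosomal protein and mitochondrial genome classes, and *w1118* replicate 1 (circle) is the control library nearest to *KahΔZnF* in the synaptic, sarcomere, basement membrane and cuticle sums.

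In the mesoderm, where *Kah* is expressed, few of the genes that specify visceral mesoderm were called. *Kah* was the call among 15 tested, and the class median was -0.03 on the log2 scale. There were 2 called higher without *KahΔZnF* replicate 1, *KahΔZnF* replicate 2 or with the mitochondrial read share as a covariate, 3 higher and 1 lower without *w1118* replicate 1, and 2 higher and 2 lower without replicate 1 of both genotypes. The normalized count summed over the class was 57638, 53474 and 56258 in the *KahΔZnF* libraries, against 44073, 44569 and 44961 in the *w1118* libraries, groups that did not overlap and a ratio of means of 1.25. Such a sum is weighted to the members with the most reads. With a median of -0.03, it does not show that the genes of the class rose together. *bin* and *bap*, the factors that define the trunk visceral mesoderm, had log2 fold changes of -0.06 and 0.16, and *Alk* and its ligand *jeb* had log2 values of -0.22 and -0.50, the second passing without *w1118* replicate 1 (-0.72) or without replicate 1 of both genotypes (-0.78). *Fas3*, an adhesion protein of the visceral muscle, averaged 8093 ± 168 normalized counts in *KahΔZnF*, against 8297 ± 460.0 in *w1118* (SD, n = 3 each). Of the cardiac factors, 3 of 10 rose and 1 fell, and 5 rose when replicate 1 of either genotype was left out. *Doc2* and *Doc1*, T-box genes, had log2 fold changes of 0.77 and 0.63, the call on *Doc2* being lost without *w1118* replicate 3 (0.58) and that on *Doc1* without *KahΔZnF* replicate 3 (0.588) or *w1118* replicate 2 (0.56). *tin*, the heart determinant, had a log2 fold change of 0.56 and was called without *KahΔZnF* replicate 1 (0.593), *w1118* replicate 1 (0.70) or both (0.73). Somatic muscle identity genes gave 1 higher and 2 lower of 11, and *Mef2*, which drives muscle differentiation, had 2781, 2664 and 2597 normalized counts in *KahΔZnF* and 2829.8, 3003 and 3088 in *w1118* (log2 fold change -0.15, not called). Of the myoblast fusion genes, 3 of 14 rose and 1 fell, with a median log2 fold change of 0.09. The fusion receptors *sns* and *kirre* had log2 fold changes of 0.00 and -0.03.

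Genes of the contractile apparatus were lower as a class. Of the sarcomere genes, 26 of 27 fell and 0 rose, with a median log2 fold change of -1.04, and the summed normalized count was 365722, 323099.9 and 291947 in the *KahΔZnF* libraries, against 547222, 710990.4 and 677266 in the *w1118* libraries, a ratio of means of 0.507, and of 0.471 without *w1118* replicate 1. Muscle myosin heavy chain, *Mhc*, had 51459, 40241 and 35694 normalized counts in *KahΔZnF*, against 68860.0, 101620.0 and 94385 normalized counts in *w1118* (log2 fold change -1.05, standard error 0.17, adjusted p = 0.000225). The embryonic muscle actin *Act57B* had 76437, 65000.2 and 58544 normalized counts in *KahΔZnF*, against 116898, 153879 and 142028 normalized counts in *w1118* (log2 fold change -1.04, standard error 0.14, adjusted p = 5.72e-05). No *KahΔZnF* library reached the lowest *w1118* library for either gene. The giant titin-like and obscurin genes *sls* and *Unc-89* had log2 fold changes of -1.01 and -1.61, and the calcium-binding *TpnC25D* had the largest decrease of the class, at -1.83. *Tm1*, a tropomyosin gene that is also expressed outside muscle, was the member not called, at a log2 fold change of -0.39. Genes for integrin adhesion, which anchors muscle to tendon, fell in 4 of 12 cases, with inflated, *if*, at a log2 fold change of -1.22 and myospheroid, *mys*, the shared beta subunit, at 0.01 and not called.

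Of the basement membrane genes, the collagen IV genes *Cg25C* and *vkg* had log2 fold changes of -1.34 and -1.31, and the perlecan gene *trol* was at -1.21. *Cg25C* had 29561, 25435 and 22521 normalized counts in *KahΔZnF*, against 50271, 69704 and 78426 normalized counts in *w1118* (adjusted p = 3.05e-05). The laminin genes, which are laid down before collagen in the fly embryo, were 4 in number and had a median log2 fold change of 0.03 and a range between -0.08 and 0.17. *LanA* had 21807, 17914 and 17566 normalized counts in *KahΔZnF* and 19030.3, 20139 and 20928 in *w1118* (adjusted p = 0.517). Over the whole class 7 of 11 genes fell.

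**Figure D4:**
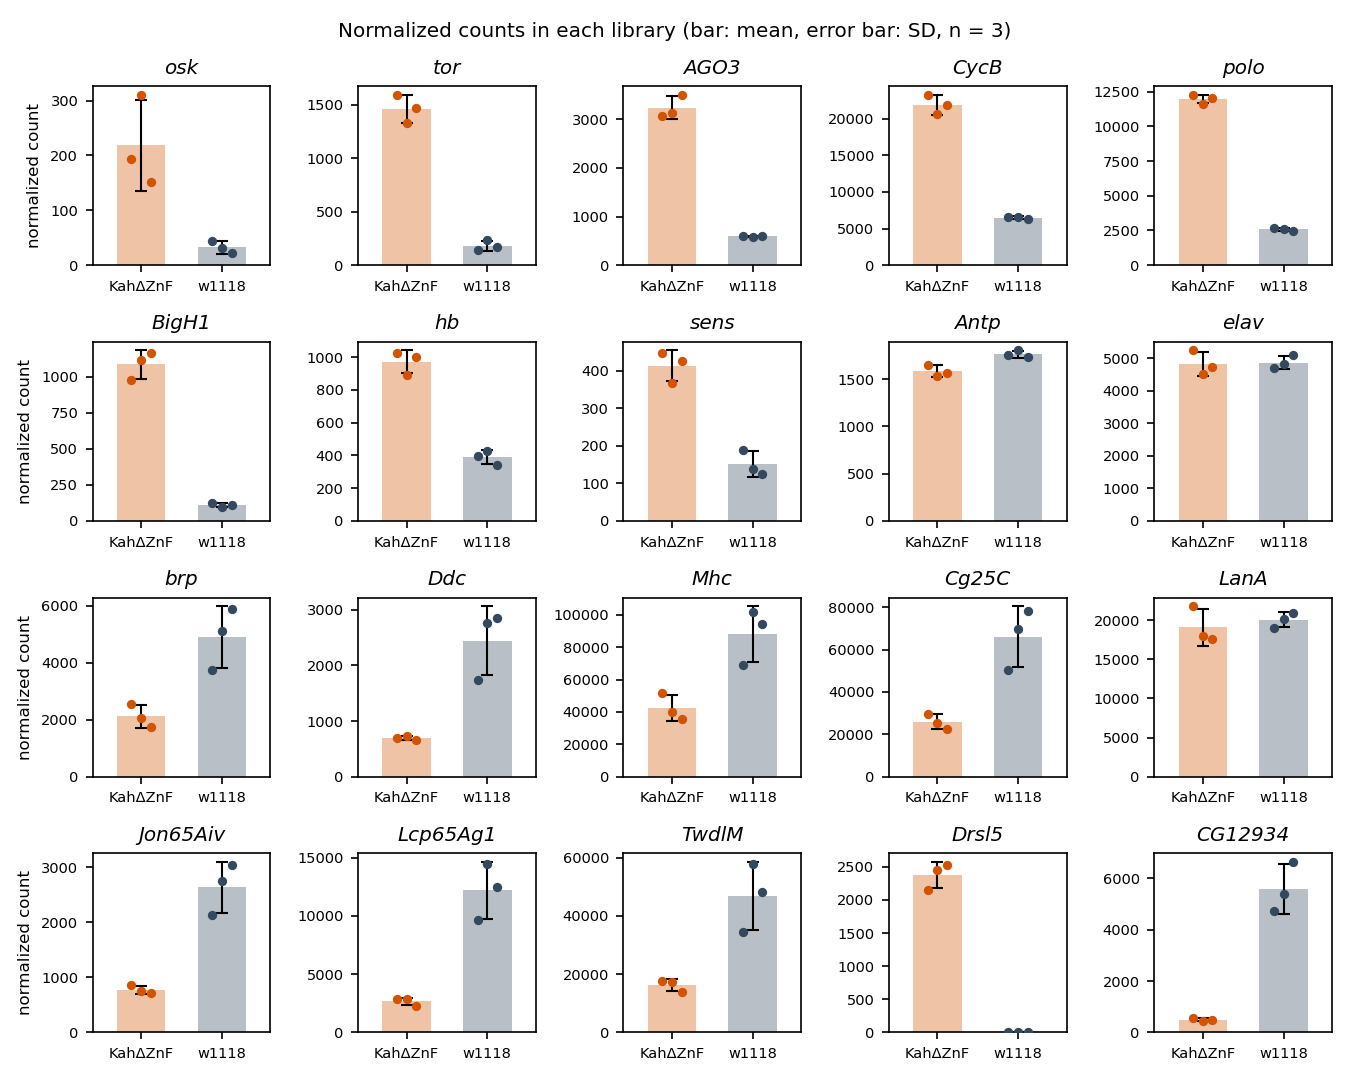
Normalized counts of 20 genes in each library, with the mean as a bar, the SD as the error bar (n = 3) and the libraries as points, *KahΔZnF* in orange to the left and *w1118* in dark blue to the right of each panel. The genes from *osk* to *sens* and *Drsl5* are higher in every *KahΔZnF* library than in any *w1118* library, *Antp*, *elav* and *LanA* overlap or lie close, and the genes of synapse, muscle, gut and cuticle are lower in every *KahΔZnF* library than in any *w1118* library.

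In the gut, most transcription factors of the endoderm were not called, while genes for digestive enzymes fell. Of the endoderm and midgut factors only *GATAe*, which maintains midgut identity, fell among 9, with 1059.7, 932 and 873 normalized counts in *KahΔZnF*, against 1755, 1766 and 1854 normalized counts in *w1118*. *srp*, *fkh* and *byn* had log2 fold changes of -0.18, -0.01 and 0.02. Of the digestive serine proteases, 20 of 26 fell and 4 rose, with a median log2 fold change of -1.30. All 11 trypsin genes tested fell, with a median log2 fold change of -1.57, and of the 15 Jonah genes 9 fell and 4 rose. *Jon65Aiv* had 854, 749.9 and 719 normalized counts in *KahΔZnF*, against 2129.5, 2750.0 and 3030.1 normalized counts in *w1118* (log2 fold change -1.75, standard error 0.13, adjusted p = 1e-06). *Jon74E* was on the other side, with 56.4, 65.4 and 65.9 normalized counts in *KahΔZnF*, against 41.7, 18.3 and 33.0 normalized counts in *w1118* (log2 fold change 1.06, standard error 0.29, adjusted p = 0.00673). The *w1118* libraries of *Jon66Ci* were far apart, at 0.956, 3.22 and 1.06 normalized counts in *KahΔZnF*, against 81.6, 52.996 and 12.99 normalized counts in *w1118*. Members of these protease and lysozyme clusters are close in sequence, and how reads were divided among them is uncertain. Of the other midgut digestion genes, 10 of 19 fell and 2 rose, with a median log2 fold change of -0.85. Without *w1118* replicate 1, 5 rose and 9 fell. The sterol-binding gene *Npc2d* averaged 9.49 ± 3.03 normalized counts in *KahΔZnF*, against 66.8 ± 6.35 in *w1118* (SD, n = 3 each), and the maltase *Mal-A3* 1443 ± 68.5 normalized counts in *KahΔZnF*, against 4714 ± 676 in *w1118* (SD, n = 3 each). The smooth septate junction genes, which seal the midgut epithelium, all fell, with log2 fold changes of -1.30 for *mesh*, -1.27 for *Tsp2A* and -1.11 for *Ssk*. The pleated junction genes of ectodermal epithelia, *Nrx-IV*, *sinu* and *cora*, had log2 fold changes of 0.14, 0.06 and -0.46 and were not called, though *cora* passed without replicate 1 of both genotypes (-0.60). Of all septate junction genes, 5 of 24 fell and 2 rose, with a median log2 fold change of -0.05. The smooth junction genes made up 4 of those that fell, and the other was *Atpalpha*, the sodium pump subunit gene, at a log2 fold change of -0.60, a call lost with the mitochondrial read share as a covariate, against a fold change of 1.5 and without *KahΔZnF* replicate 3 (-0.55), *w1118* replicate 2 (-0.55) or *w1118* replicate 3 (-0.51). The genes that rose were *crok* and *CG10217*, at log2 fold changes of 0.82 and 0.88.

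Of the hemocyte genes, 6 of 15 fell and 2 rose, with a median log2 fold change of -0.30. Hemolectin, *Hml*, a clotting protein of plasmatocytes, had 300.3, 296 and 223 normalized counts in *KahΔZnF*, against 812, 1018 and 1399.6 normalized counts in *w1118* (log2 fold change -1.95, standard error 0.19, adjusted p = 6.59e-06). The phagocytic receptor genes *NimC1* and *eater* fell, with log2 fold changes of -2.57 and -1.56, as did *Pxn* (peroxidasin), *He* (hemese) and *PPO2* (a prophenoloxidase of crystal cells), with -0.92, -1.11 and -0.78. Of these, *He* was near the inclusion limit, with 7.65, 10.7 and 4.25 normalized counts in *KahΔZnF*, against 20.4, 11.6 and 19.0 in *w1118* (limma adjusted p = 0.0312). The genes of the class that rose were the fate gene *gcm* and the phagocytic receptor gene *NimC4*, with log2 fold changes of 0.82 and 0.87. The blood cell factors *srp*, *ush* and *lz* had log2 fold changes of -0.18, 0.17 and -0.12 and were not called. In the fat body, *Lsp1gamma*, a larval storage protein, averaged 15.4 ± 7.45 normalized counts in *KahΔZnF*, against 92.6 ± 10.6 in *w1118* (SD, n = 3 each), while *Fbp2* had 25.8, 26.8 and 30.8 normalized counts in *KahΔZnF*, against 0.927, 0 and 1.998 normalized counts in *w1118*, where only 3 reads were found in all, a ratio of 28.9-fold (95% exact counting interval 9.54 to 143). In total 1 of 10 fat body genes rose and 2 fell. Salivary gland and Malpighian tubule genes each gave 1 call, *sens* and *NaPi-T* (log2 fold change 1.04), among 10 and 9 tested. Without *KahΔZnF* replicate 2 or *w1118* replicate 1, 2 salivary gland genes were higher. In the Malpighian tubule class DESeq2 and edgeR each called 1 gene lower, as did the fit without *w1118* replicate 1, and 2 were lower without *KahΔZnF* replicate 1.

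Most genes of the cuticle, which the epidermis secretes, fell. Of 95 cuticle protein genes with a chitin-binding Rebers-Riddiford domain in the table, 73 were tested, 61 fell and 1 rose, with a median log2 fold change of -1.31. The class summed to 52763, 52160.2 and 47074 in the *KahΔZnF* libraries, against 108816, 146984 and 137944 in the *w1118* libraries, a ratio of means of 0.386. *Lcp65Ag1* had 2825, 2838 and 2307 normalized counts in *KahΔZnF*, against 9635, 14473 and 12518 normalized counts in *w1118* (log2 fold change -2.19, standard error 0.14, adjusted p = 4.47e-07). All 9 genes tested of the Lcp65A cluster and all 7 of the Ccp84A cluster fell, with median log2 fold changes of -2.06 and -1.997. *Lcp65Ab1* and *Lcp65Ab2*, at log2 fold changes of -3.06 and -3.14, are near-identical copies, so the division of reads between them is uncertain. The gene of the class that rose was *Cpr47Ea*, with 15.3, 23.6 and 9.57 normalized counts in *KahΔZnF*, against 6.49, 10.6 and 3.996 normalized counts in *w1118*, a log2 fold change of 1.10. Its call was lost with DESeq2, with TMM scaling, with no inclusion limit, with the mitochondrial read share as a covariate, against a fold change of 1.5 and when a library was left out, at log2 fold changes given here in brackets, without *KahΔZnF* replicate 1 (1.09), *KahΔZnF* replicate 2 (0.79), *w1118* replicate 1 (1.09), *w1118* replicate 3 (0.80) or replicate 1 of both genotypes (1.08). Tweedle genes, another cuticle protein family, fell in 18 of 24 cases. *TwdlM*, the one with the most reads among those called, had 17607, 17296 and 13956 normalized counts in *KahΔZnF*, against 34587, 57766 and 48339 normalized counts in *w1118* (log2 fold change -1.502, standard error 0.17, adjusted p = 1.97e-05). *TwdlO* had 0, 0 and 0 normalized counts in *KahΔZnF*, against 52.9, 27.0 and 12.99 normalized counts in *w1118*, which makes it at least 10.01-fold lower when 3 reads per library are taken as the floor, or 6.46-fold without *w1118* replicate 1.

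Among the genes for chitin and tanning, 9 of 20 fell and 2 rose, with a median log2 fold change of -0.39. The ebony gene, *e*, which forms a precursor of the light cuticle, had 195, 237 and 178 normalized counts in *KahΔZnF*, against 721, 937 and 1051 normalized counts in *w1118* (log2 fold change -2.14, standard error 0.15, adjusted p = 9.52e-07). Chitin synthase, *kkv*, was at a log2 fold change of -0.25 and not called, while *knk*, which organizes the chitin fibres, rose to 206 ± 20.9 normalized counts in *KahΔZnF*, against 93.2 ± 21.9 in *w1118* (SD, n = 3 each). The genes that shape the apical matrix before cuticle is secreted, many of them zona pellucida domain genes, were called in 1 higher and 2 lower of 14 cases. The Osiris genes, another large epidermal and tracheal family, had a median log2 fold change of -0.09 over 17 tested genes, between -0.30 and 0.15. Of the tracheal genes 1 rose and 3 fell among 16. *btl*, the FGF receptor of the branching trachea, rose to 766 ± 66.9 normalized counts in *KahΔZnF*, against 345 ± 46.8 in *w1118* (SD, n = 3 each). *trh*, the tracheal determinant, was at a log2 fold change of -0.04, and the apical matrix gene *pio* had 996, 848 and 830.4 normalized counts in *KahΔZnF*, against 1739, 2309 and 2279 normalized counts in *w1118* (log2 fold change -1.23, standard error 0.12, adjusted p = 7.97e-06). Polarity and adherens junction genes, common to all epithelia, rose in 8 of 16 cases, with E-cadherin, *shg*, at 7721 ± 579 normalized counts in *KahΔZnF*, against 4599.6 ± 217 in *w1118* (SD, n = 3 each).

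Among the genes of the core machinery of the cell, those for ribosomal proteins were mostly not called. Of the cytosolic ribosomal protein genes, 5 of 88 rose and 0 fell, with a median log2 fold change of 0.03. The genes that rose included the paralogs *RpS5b* and *RpS19b*, known from the germline, at log2 fold changes of 1.18 and 1.08. Without *KahΔZnF* replicate 1, 8 rose, and without replicate 1 of both genotypes 10. Mitochondrial ribosomal protein genes gave 1 higher and 4 lower of 72. The proteasome has a core and a regulatory particle, and the difference between them was not tested. Of the core particle genes 13 of 15 rose, with a median log2 fold change of 1.21, against 4 of 20 regulatory particle genes and a median of 0.29. *Prosbeta5*, a catalytic subunit gene, had 2692, 3835 and 3914 normalized counts in *KahΔZnF*, against 1635, 1124 and 1089 normalized counts in *w1118*, and *Rpn1* of the regulatory particle 1958, 1909.7 and 1896 normalized counts in *KahΔZnF* and 1605, 1628 and 1466 in *w1118*. These parts were drawn after their values had been seen. Translation factor genes rose in 10 of 47 cases and aminoacyl-tRNA synthetase genes in 4 of 31, shares of 21.3% and 12.9%.

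Of the glycolysis genes, 8 of 13 fell and 0 rose, with a median log2 fold change of -0.66, but 0 fell when tested against a fold change of 1.5. Phosphofructokinase and pyruvate kinase, *Pfk* and *PyK*, had log2 fold changes of -0.83 and -0.82, lactate dehydrogenase, *ImpL3*, of -0.02. *PyK* had 1899, 2053 and 1764 normalized counts in *KahΔZnF*, against 2999, 3444 and 3683 normalized counts in *w1118*. Of the nuclear genes for oxidative phosphorylation, 17 of 68 fell and 2 rose, with a median log2 fold change of -0.42, a share falling of 25.0% against 25.5% for all genes, and 4 fell when tested against a fold change of 1.5. *ATPsyn-beta*, the catalytic subunit of ATP synthase, averaged 19685 ± 562 normalized counts in *KahΔZnF*, against 34209 ± 909 in *w1118* (SD, n = 3 each). The protein genes of the mitochondrial genome gave 1 call among 13, with a median log2 fold change of 0.00. *mt:CoI*, cytochrome oxidase subunit I, averaged 207718 ± 54095 normalized counts in *KahΔZnF*, against 208850.0 ± 33831 in *w1118* (SD, n = 3 each), and its libraries, like the mitochondrial read share, did not divide by genotype. Of 7 mitochondrial tRNA genes 5 rose, at low levels, for example *mt:tRNA:Y* with 49.7, 78.3 and 97.8 normalized counts in *KahΔZnF*, against 24.1, 22.2 and 24.0 normalized counts in *w1118*.

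In each of the detoxification families more genes fell than rose, and the rising shares were under the background of 23.8%. Cytochrome P450 genes fell in 37 of 71 cases (52.1%) and rose in 12 (16.9%). UDP-glycosyltransferase genes fell in 22 of 34 (64.7%) and rose in 5 (14.7%). Glutathione S-transferase genes, with 9 falling (26.5%) and 5 rising (14.7%) of 34, were near the background in the falling direction. They gave 5 rising and 3 falling when tested against a fold change of 1.5. *Cyp12d1-d* had 62.2, 38.6 and 57.4 normalized counts in *KahΔZnF*, against 3.71, 4.82 and 2.997 normalized counts in *w1118* (log2 fold change 3.46, standard error 0.32, adjusted p = 5.55e-06), and its near-identical neighbour *Cyp12d1-p* 80.3, 71.9 and 103 normalized counts in *KahΔZnF* and 41.7, 34.7 and 24.98 in *w1118*. *Cyp12d1-d* passed the inclusion limit through the *KahΔZnF* libraries alone, which favours a call. Of the ecdysone response genes, 6 of 21 fell and 2 rose, with a median log2 fold change of -0.16. *Hr38* and *Eip74EF*, a nuclear receptor and an ETS factor of the hormone cascade, had log2 fold changes of -1.97 and -1.86, while the receptor genes *EcR* and *usp* were at 0.55 and 0.04. Of the ecdysone synthesis genes, 3 of 9 rose and 1 fell, with a median log2 fold change of 0.02. The steroid synthesis genes *dib* and *sad* rose by log2 fold changes of 1.22 and 0.92, and spookier, *spok*, fell by 1.05 on the log2 scale.

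Immune and stress genes included the largest difference in the data. *Drsl5*, a drosomycin-like peptide gene (chromosome 3L from 3316781 to 3317144), had 2152, 2451 and 2527 normalized counts in *KahΔZnF*, against 0.927, 0 and 0.999 normalized counts in *w1118*. Only 2 reads in all were on it in *w1118*, which gives a ratio of 3698-fold (95% exact counting interval 1023 to 30543). Its fitted values were log2 fold change 10.56, standard error 0.26, adjusted p = 6.26e-09. It passed the inclusion limit through the *KahΔZnF* libraries alone, which favours a call. *DptB*, a diptericin, was at a far lower level, with 31.6, 67.6 and 42.5 normalized counts in *KahΔZnF*, against 0, 0.964 and 1.998 normalized counts in *w1118*, while drosomycin itself, *Drs*, was not called, with 14.3 ± 2.28 normalized counts in *KahΔZnF*, against 14.5 ± 3.37 in *w1118* (SD, n = 3 each). Of 16 antimicrobial peptide genes in the table only 6 passed the inclusion limit, so the 4 that rose do not describe the family. Of the heat shock protein genes, 6 of 18 rose and 3 fell, with a median log2 fold change of 0.43, and 3 rose with an inclusion limit of 50 normalized counts. The small heat shock gene *Hsp26* rose to 458 ± 188 normalized counts in *KahΔZnF*, against 99.5 ± 29.6 in *w1118* (SD, n = 3 each), and *Hsp23* and *Hsp27* rose by log2 fold changes of 1.48 and 1.36, whereas *Hsp67Bc*, of the same family, fell, with a log2 fold change of -0.98. The inducible *Hsp70Ab*, *Hsp70Bc* and *Hsp70Bb* rose by log2 fold changes of 1.17, 1.198 and 0.89, but are near-identical copies whose reads cannot be divided with certainty, and *Hsp68*, at -0.28 on that scale, was not called. For *Hsp70Bc* the libraries of the genotypes overlapped (limma adjusted p = 0.0208). The Hsp70 cognates *Hsc70-1* and *Hsc70-2* fell, with log2 fold changes of -1.56 and -1.32. Of the apoptosis genes, 6 of 16 rose and 1 fell, with a median log2 fold change of 0.29. The caspase genes *Drice*, *Dronc* and *Dcp-1* rose by log2 fold changes of 1.56, 1.40 and 1.21, and *hid* and *rpr*, inducers of cell death, and *p53* by 0.91, 0.60 and 0.67. The call on *rpr* was lost with edgeR, with TMM scaling, with the mitochondrial read share as a covariate, against a fold change of 1.5 and without *KahΔZnF* replicate 3 (0.53), *w1118* replicate 2 (0.56) or *w1118* replicate 3 (0.587). The gene that fell was *Buffy*, a Bcl-2 family member, at a log2 fold change of -1.48. Among 143 chemoreceptor genes 24 were tested and 11 fell, among them the odorant co-receptor *Orco*, with 20.1, 19.3 and 24.5 normalized counts in *KahΔZnF*, against 52.9, 74.2 and 60.9 normalized counts in *w1118*. The olfactory receptor gene *Or71a* had 4.78, 2.15 and 6.38 normalized counts in *KahΔZnF*, against 122, 133 and 107 normalized counts in *w1118* (log2 fold change -4.57, standard error 0.33, adjusted p = 9.48e-07). *Or71a* passed the inclusion limit through the *w1118* libraries alone. With 24 of 143 chemoreceptor genes tested, the 11 that fell do not describe the family. With an inclusion limit of 50 normalized counts 6 chemoreceptor genes fell.

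*CR43105*, a pseudogene counted among the long noncoding and antisense RNA genes, had 193, 163 and 198 normalized counts in *KahΔZnF*, against 0, 0 and 0 normalized counts in *w1118*, and with a floor of 3 reads per library it was at least 63.9-fold higher. Among genes outside the classes with large fold changes, *CG33269*, an uncharacterized gene, had 520.3, 583 and 566 normalized counts in *KahΔZnF*, against 24.1, 18.3 and 21.0 normalized counts in *w1118* (log2 fold change 4.66, standard error 0.15, adjusted p = 2.21e-08), and *CG8316*, on the X chromosome, 246, 279 and 303 normalized counts in *KahΔZnF* and 13.9, 11.6 and 17.98 in *w1118*. In the other direction *CG2233* had 144, 133 and 127 normalized counts in *KahΔZnF*, against 1119, 1044 and 1080.0 normalized counts in *w1118* (log2 fold change -2.997, standard error 0.10, adjusted p = 2.21e-08) and *CG13545* had 184, 187 and 163 normalized counts in *KahΔZnF*, against 1204, 1304 and 1776 normalized counts in *w1118*. The circadian factor *Clk* averaged 17.2 ± 7.17 normalized counts in *KahΔZnF*, against 134 ± 12.6 in *w1118* (SD, n = 3 each), for which the log2 fold change was -2.97. For each of these genes every library of one genotype was apart from every library of the other.

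The calls were not gathered on one chromosome arm. The share of tested genes that rose was 25.0% on 2L, 21.8% on 2R, 23.5% on 3L, 24.0% on 3R and 25.4% on the X, and the share that fell was 24.9%, 26.7%, 27.0%, 25.4% and 23.1% in that order. On chromosome 4, with 94 genes tested, 18.1% rose and 19.1% fell. The calls did vary with level. In the fifth of genes with the lowest mean normalized count 16.3% rose and 34.2% fell, and in the fifth with the highest 28.8% rose and 17.4% fell. Long noncoding and antisense RNA genes were tested in 410 of 1604 cases, and 79 rose and 115 fell. The rising share was under the background of 23.8%, and the falling share was above that of 25.5%. These counts do not describe the members left untested. Of the 263 genes named here, 69 share exon bases with another annotated gene, as do 3959 of all genes tested, and since a strand setting for the counting is not given in the sources used here, reads on the shared bases cannot be told apart. The genes concerned are *Act57B*, *AGO3*, *Antp*, *arm*, *armi*, *ATPsyn-beta*, *Axn*, *bam*, *CG33269*, *Cha*, *Cpr47Ea*, *crok*, *CycE*, *Dcp-1*, *Ddc*, *del*, *dib*, *DptB*, *dup*, *E(z)*, *elav*, *Fbp2*, *fu*, *gcl*, *gcm*, *glu*, *He*, *Hr38*, *Hsp27*, *Hsp68*, *Hsp70Ab*, *knk*, *Mcm10*, *Mcm7*, *mof*, *nct*, *nos*, *Nuf2*, *Nup160*, *Obp44a*, *osk*, *p53*, *Pc*, *pen-2*, *pgc*, *piwi*, *pros*, *Prosbeta5*, *Psf3*, *Pxn*, *repo*, *RYa-R*, *sad*, *sls*, *smo*, *srp*, *Syt1*, *Syx1A*, *thr*, *Tm1*, *TpnC25D*, *trh*, *twe*, *Ubx*, *unc-13*, *ush*, *usp*, *VGlut* and *zuc*.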

How the data were processed

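Paired-end reads were aligned by the authors with HISAT2 2.0.5 to BDGP6 (Ensembl). They were counted per gene with featureCounts 1.5.0-p3, and the reads of each library were divided by a size factor with DESeq2 1.20.0. The signal the authors deposited is this normalized count, with an exonic gene length as deposited in base pairs. Their fold changes and p-values for the comparison, which the table also holds, were not used, and 6 columns of a second table, for the other mutant, were not used here. Dividing by the value of 1 read gave whole numbers for 100% of the values in every library (tolerance 0.001), with no read pooled between replicates. All pairs of replicates differed by more than counting error, replicate 1 of each genotype the most.

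Values were tested as log2(value + 1) with limma 3.58.1 (trend, R 4.3.3) on the 10957 genes that passed the inclusion limit, and p-values were adjusted over all of them. The fits were tested on simulated data with 200 genes changed, against 5400 called here. The simulated replicates had no library that stood apart. The simulation therefore does not show how the scaling or the fits behave under the conditions of these data. As alternatives, the recovered reads were fitted with DESeq2 1.42.0 and edgeR 4.0.16, and the limma fit was repeated with another scaling, pseudocount, inclusion limit or fold change limit, with the replicate number as a block, with the mitochondrial read share as a covariate with each library left out and with replicate 1 of both genotypes left out. Because the deposited values were not raw, limma and not a count model was the main test. Counting intervals are exact and cover counting error only. Gene classes were lists of symbols matched to the table, with exon overlaps from the Ensembl annotation of the same assembly. Motifs in promoters were not searched because no genome sequence was used here. Plots were drawn with matplotlib 3.10.9.

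The comparison, the gene classes and the lists were chosen with earlier results of these data known. The genes named are *Kah*, the 12 called genes at either end of the fold changes with a mean of at least 50, up to 4 called members of each class by level and up to 4 by fold change, the first 4 members of each class, and the 10 genes with the highest mean. Not all of these are given. Parts of classes (the trypsins, the proteasome particles, the laminins and the like) and the following genes were picked after seeing their values: *RYa-R*, *CG9507*, *CG16813*, *CG13748*, *CG4927*, *CG13575*, *scrt*, *plu*, *dl*, *tud*, *gcl*, *rhi*, *armi*, *spn-E*, *del*, *stg*, *Cdk1*, *CycE*, *PCNA*, *Gnf1*, *Psf3*, *Psf1*, *Psf2*, *Sld5*, *Nuf2*, *Spc25*, *Ndc80*, *SMC1*, *SMC3*, *SMC2*, *glu*, *barr*, *E(z)*, *Ubx*, *Antp*, *tll*, *en*, *pen-2*, *E(spl)m8-HLH*, *fz*, *fz2*, *pros*, *cas*, *SoxN*, *Cha*, *VGlut*, *unc-13*, *Syx1A*, *Csp*, *sNPF*, *Dh44*, *Hug*, *Dh31*, *Tk*, *sli*, *robo*, *Fas3*, *sls*, *Tm1*, *byn*, *Jon74E*, *sinu*, *crok*, *ush*, *Cpr47Ea*, *shg*, *Rpn1*, *ImpL3*, *Cyp12d1-p*, *Hsp70Ab*, *Hsp70Bc*, *Hsp70Bb*, *Hsp68*, *Hsc70-2*, *p53*, *Orco* and *Obp99b*.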

Additional observations from a re-analysis of the deposited data

How the results depend on the processing

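No gene called in the main comparison was called the other way under any alternative run. All of these runs refitted the same libraries, so a reversal was unlikely by construction. DESeq2 on the recovered reads called 2543 genes higher and 2764 lower, edgeR 2525 and 2883, and limma after TMM scaling 2530 and 2877, a scaling that moved the median of all genes by -0.02 on the log2 scale. A pseudocount of 5 gave 2588 and 2768, a limit of 50 normalized counts in 3 libraries 2383 and 2348 from 9479 genes, no limit 2726 and 3047 from 14584 genes, and the mitochondrial read share as a covariate 2578 and 2736. Testing against a fold change of 1.5, which asks for a larger difference by construction, gave 1697 genes higher and 1591 lower and lowered 20 class counts of 5 or more by over 1.5 times, against 6 moved by the limit of 50 and 1 by DESeq2. Leaving out each library in turn gave 2506 to 2727 genes higher and 2573 to 2900 lower, with 92.6% to 97.3% of the calls kept, and moved a class count of 5 or more by over 1.5 times in 3 classes without *KahΔZnF* replicate 1, 3 without *w1118* replicate 1, and 1 each without *KahΔZnF* replicate 2 and *w1118* replicate 2. Without replicate 1 of both genotypes, chosen after seeing the data, 2768 genes were higher and 2944 lower, and 4 such class counts moved. The log2 fold change of *Kah* lay between 0.968 and 1.06. Among the other genes named here, 3 calls were lost with DESeq2, 2 with edgeR and 1 with the replicate number as a block. Without *w1118* replicate 3, 9 were lost, and 32 when tested against a fold change of 1.5. Not all of these losses are marked where the genes are named. Libraries with the same replicate number did not deviate together (correlations of -0.26, -0.097 and -0.098), and a fit with the replicate number as a block gave 2577 and 2757 calls. The planned fit of all 9 libraries was not run, because columns of the other mutant could not be tied to its samples by name, and the planned promoter motifs were not searched. With 3 libraries a group, and no label that says how many embryo collections they came from, the spread between them may not include that between collections.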

Other observations

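Further gene groups, drawn after their values had been seen and therefore given without a test, were mostly called in one direction. All 7 COP9 signalosome genes rose, with a median log2 fold change of 1.23, as did all 6 genes of augmin, which builds spindle microtubules, with a median of 1.46. Of the Taf genes of the general transcription factor TFIID 10 of 12 rose (median log2 fold change 1.18), of the Su(var) genes of heterochromatin 6 of 6 (median 1.17), and of the *mus* DNA repair genes 7 of 8 (median 1.23). In the other direction, V-ATPase subunit genes fell in 16 of 23 cases (median log2 fold change -0.71), nicotinic receptor genes in 8 of 9 (median -1.03), mucin genes in 6 of 9 (median -0.90) and pickpocket sodium channel genes in 7 of 11 (median -1.11). The Sec genes of the secretory pathway, by contrast, lay close to the median of all genes, at 0.14 over 18 genes, and their log2 fold changes ran between -0.54 and 0.52.

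Of the transcripts with the most reads, the mitochondrial large ribosomal RNA *mt:lrRNA* averaged 2020980.0 ± 779572 normalized counts in *KahΔZnF*, against 1563490.0 ± 501607 in *w1118* (SD, n = 3 each), and the elongation factor gene *Ef1alpha48D* averaged 119442 ± 3897 normalized counts in *KahΔZnF*, against 133507 ± 2728 in *w1118* (SD, n = 3 each), neither of which was called, although *mt:lrRNA* passed without *KahΔZnF* replicate 1 (log2 fold change 0.71) or without replicate 1 of both genotypes (0.95). Odorant binding protein genes were tested in 21 of 37 cases, with 5 rising (23.8%) and 9 falling (42.9%). The rising share was that of all genes tested (23.8%), and only the falling share was above its background of 25.5%. *Obp99b* and *Obp44a* had log2 fold changes of 1.39 and -1.19. Of the dosage compensation and sex genes, 7 of 15 rose and 1 fell, with a median log2 fold change of 0.46. The acetyltransferase gene *mof* averaged 1356 ± 127 normalized counts in *KahΔZnF*, against 339 ± 18.7 in *w1118* (SD, n = 3 each), while *fru* had 101, 84.8 and 94.6 normalized counts in *KahΔZnF*, against 164, 229 and 259.7 normalized counts in *w1118*. Of 6 Turandot stress genes in the table only 2 were tested, so they do not describe the family. *Victoria* had 29.6, 41.8 and 30.8 normalized counts in *KahΔZnF*, against 0, 0 and 0 normalized counts in *w1118*, at least 11.8-fold higher with a floor of 3 reads per library. *TotC* had 1.91, 0 and 4.25 normalized counts in *KahΔZnF*, against 28.8, 15.4 and 13.99 normalized counts in *w1118*. Each passed the inclusion limit through the libraries of 1 genotype alone.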
